A study of Mus musculus with 30 samples.

Results

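The transcripts described here come from 10 genes of the circadian clock in mouse liver: the output transcription factor genes Dbp, Tef and Hlf, the period genes Per1, Per2 and Per3, the nuclear receptor repressor genes Nr1d1 and Nr1d2, the repressor gene Ciart and the deubiquitinase gene Usp2. They were chosen by symbol as genes that share the daily phase of Dbp, and they are 10 of the 17990 symbols in the deposited table of counts. All 10 passed the filter on low counts in each fit. The livers were taken at 10 weeks of age from the offspring of outbred ICR mice. The dams drank water with 2,4-BPS, BPSIP, BPS or estradiol (E2) at 10 ng/mL, set to give about 5 µg/kg body weight a day, from the start of pregnancy until weaning was complete, about 40 days. Control dams drank water with the 0.001% ethanol that served as solvent in all groups. BPS is bisphenol S, in which a sulfone group joins a pair of phenol rings, 2,4-BPS is its positional isomer, in BPSIP an isopropyl ether replaces a hydroxyl group, and E2 is the main natural oestrogen. Each exposure and the control gave 3 female and 3 male livers, so that 30 libraries fell into 10 groups. The offspring of a group came from litters of different dams out of 8 dams per group, were exposed only through the dam, and were sampled weeks after the exposure had ended. The labels give no hour of collection, so a shared hour of a group and its exposure cannot be told apart.

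In the clock, the proteins of Clock and Arntl (BMAL1) bind E-box sequences and switch on the Per and Cry genes and many others, including Dbp, Nr1d1, Nr1d2, Ciart and Usp2. PER and CRY proteins, and the product of Ciart, then hold CLOCK and BMAL1 back, while the REV-ERB receptors made from Nr1d1 and Nr1d2 repress Arntl and Npas2, which therefore peak in the opposite phase. DBP, TEF and HLF bind D-box sequences and drive genes of liver metabolism. In livers of mice kept in light and dark, Nr1d1 transcripts peak around the middle of the light phase, Dbp later in the light phase, the Per genes around nightfall with Per2 last, and Arntl toward the end of the night. The hour at which a liver is taken therefore bears strongly on the level of all these transcripts.

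Promoter windows are shown because the 10 genes are linked by these binding sequences. A window runs from 250 bases before to 50 bases after a transcription start (RefSeq, GRCm38.p6), and 9 of the 10 genes, all but Per2, have one or more windows, 11 in all. Both strands were searched for the E-box CACGTG, the E-box variant CACGTT, the D-box TTATGNAA and the REV-ERB and ROR element TAGGTCA, which do not overlap each other in these windows. Matches are in capitals below, on the strand of the gene, so that the variant in Nr1d1 reads as its reverse complement.
Ciart (chr3:95882179-95882478, minus strand): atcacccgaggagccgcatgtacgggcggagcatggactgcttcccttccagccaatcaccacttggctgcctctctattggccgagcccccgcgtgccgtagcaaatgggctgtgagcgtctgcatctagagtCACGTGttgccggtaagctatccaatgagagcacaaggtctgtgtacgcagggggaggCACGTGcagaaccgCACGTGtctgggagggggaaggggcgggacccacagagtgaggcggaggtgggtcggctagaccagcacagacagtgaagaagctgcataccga
Tef (chr15:81802423-81802722, plus strand): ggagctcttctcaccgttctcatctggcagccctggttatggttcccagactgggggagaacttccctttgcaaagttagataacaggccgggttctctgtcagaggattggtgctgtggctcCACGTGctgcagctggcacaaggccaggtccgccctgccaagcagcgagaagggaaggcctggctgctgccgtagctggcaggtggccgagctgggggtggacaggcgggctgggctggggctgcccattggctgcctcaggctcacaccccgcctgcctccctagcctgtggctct
Per1 (chr11:69098699-69098998, plus strand): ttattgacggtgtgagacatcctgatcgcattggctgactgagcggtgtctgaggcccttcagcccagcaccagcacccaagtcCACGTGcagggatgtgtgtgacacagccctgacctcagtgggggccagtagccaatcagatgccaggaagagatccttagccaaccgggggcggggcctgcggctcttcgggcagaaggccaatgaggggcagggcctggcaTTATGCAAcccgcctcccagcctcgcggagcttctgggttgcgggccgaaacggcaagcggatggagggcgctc
Per3 (chr4:151044616-151044915, minus strand): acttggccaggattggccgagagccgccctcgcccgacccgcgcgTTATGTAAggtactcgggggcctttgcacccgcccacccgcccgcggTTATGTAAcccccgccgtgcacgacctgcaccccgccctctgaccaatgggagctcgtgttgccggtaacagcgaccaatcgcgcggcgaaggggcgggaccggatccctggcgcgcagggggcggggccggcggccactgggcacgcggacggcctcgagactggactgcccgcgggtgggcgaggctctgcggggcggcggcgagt
Nr1d1 (chr11:98775328-98775627, minus strand): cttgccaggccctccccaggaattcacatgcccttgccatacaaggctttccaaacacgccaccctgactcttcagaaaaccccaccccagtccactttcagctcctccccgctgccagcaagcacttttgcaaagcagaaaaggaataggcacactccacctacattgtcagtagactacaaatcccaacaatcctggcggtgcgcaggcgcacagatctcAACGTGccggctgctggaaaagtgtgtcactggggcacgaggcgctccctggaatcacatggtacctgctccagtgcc
Ciart holds 3 E-boxes, 116, 58 and 44 bases before the start, more than any other of the 10 genes. Tef holds an E-box 127 bases before the start shown and another 138 bases before its other start. Per1 holds an E-box 166 bases and a D-box 24 bases before the start shown, and Per3 holds 2 D-boxes, 205 and 158 bases before the start. Nr1d1 holds the E-box variant 28 bases before the start. The windows of Dbp, Hlf, Nr1d2 and Usp2 hold none of these letters. Of 32851 promoter windows of all genes, 7.15% hold the E-box, 4.68% the variant, 3.38% the D-box and 2.61% the REV-ERB and ROR element, which none of the 9 genes with a window holds and which Arntl holds 30 bases after its other start.

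Libraries held 29711711 to 37719069 counts. Levels are in CPM (counts relative to the library size, from edgeR), scaled by TMM factors of 0.939 to 1.12, and a fold change is given on the log2 scale ± its standard error, and a mean level in CPM ± the SD of 3 livers. Over the 100 means of a gene in a group, the coefficient of variation among 3 livers had a median of 4.79% and a range of 0.962% to 28.2%, beside a median of 2.90% from counting alone. The libraries labelled male control held female transcripts. Y-linked transcripts summed to 88.4 CPM there and to 152 CPM on average in exposed males, and the female-specific liver gene A1bg stood at 1466 CPM there against 0.811 to 4.57 CPM in exposed male libraries. The implied share of female RNA was 41.8%. For males, each member is therefore also given with an exposed male group set against the average of the remaining 3 exposures in males. The libraries labelled male control stay in the fit but not in that contrast. P-values reflect how far libraries spread within groups, estimated over all groups of a fit, and no more. Hepatocyte markers (Alb, Apoa1, Ttr, Serpina1c and Cps1) were abundant in every library.

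In female livers, all 10 genes were lower after E2, and members went in both directions after the bisphenols. Dbp and Nr1d1 fell after every exposure, while Per2 rose after each of the 3 bisphenols. After E2, 10 of 10 genes were lower and 0 higher than in control females, where 10.6% of all tested genes were lower and 10.4% higher (edgeR, adjusted p under 0.05). After 2,4-BPS, 3 were higher and 2 lower, against 10.9% and 8.42% of all genes. After BPSIP, 1 was higher and 6 lower, against 19.4% and 19.2%. After BPS, 4 were higher and 6 lower, against 9.32% and 7.5%. The median log2 fold change of the 10 genes was −1.44 after E2, 0.10 after 2,4-BPS, −0.36 after BPSIP and −0.27 after BPS, beside medians over all genes of −0.01, 0.00, −0.01 and −0.01. These 4 comparisons share the same 3 control libraries.

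**Figure D1:**
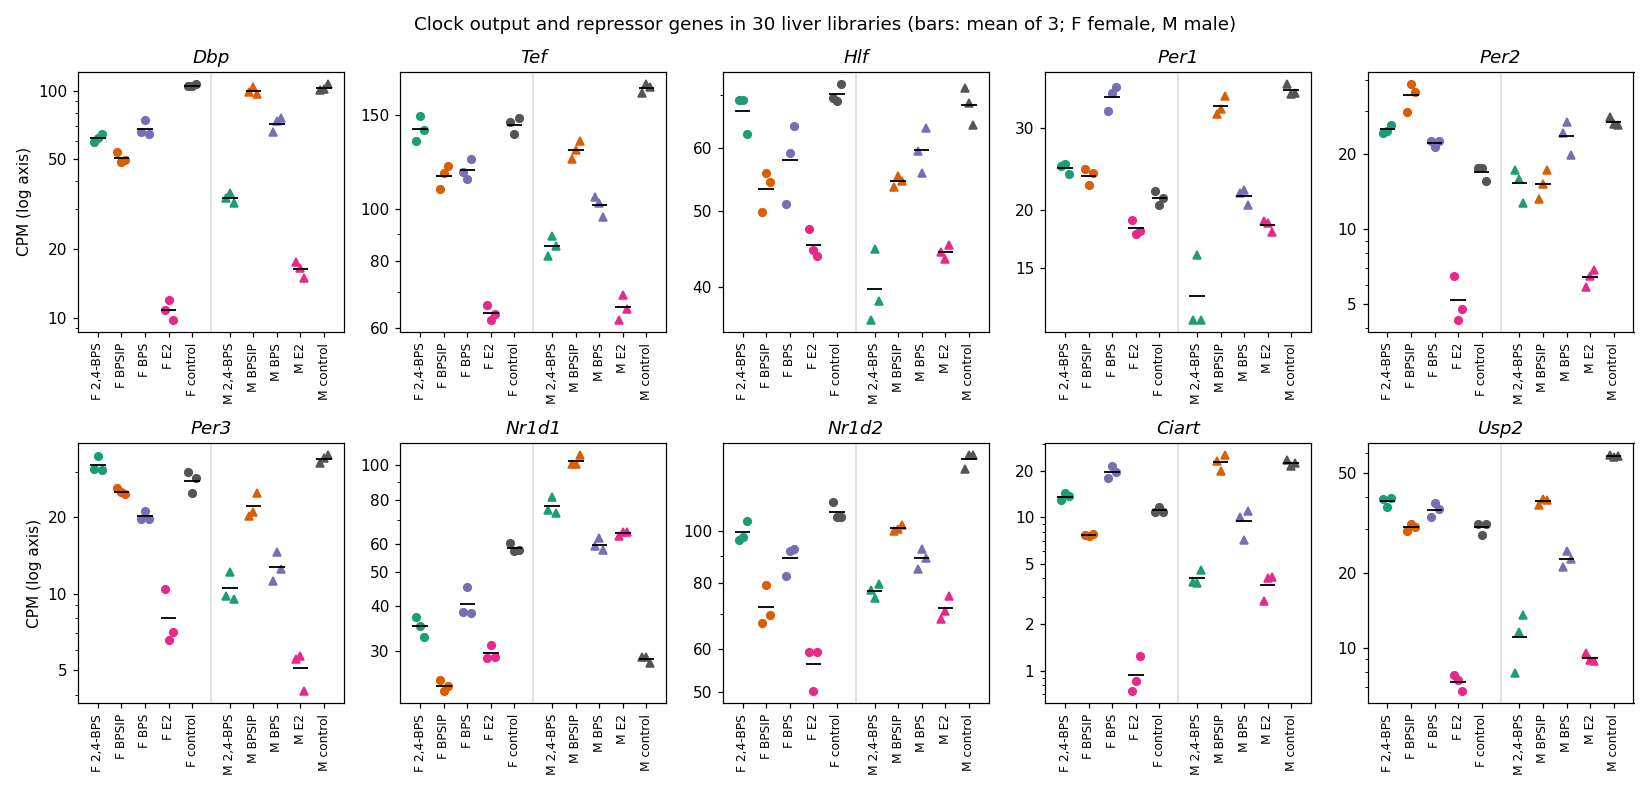
CPM of each of the 10 genes on log axes in the 30 libraries, circles for females and triangles for males, with bars at the mean of 3 livers and exposed groups left of the controls of their sex label. Female E2 livers hold the lowest mean in 6 of 10 panels, and Nr1d1 has its highest level in male BPSIP livers.

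Among the D-box activators, Dbp had the largest fitted change in females after each exposure. It had 59.4, 61.6 and 64.1 CPM in female 2,4-BPS livers, 53.6, 48.5 and 49.5 in BPSIP livers, 65.7, 74.3 and 64.1 in BPS livers and 10.8, 12 and 9.75 in E2 livers, against 105, 104 and 106 CPM in control females. Every exposed library lay below every control library, and the E2 libraries lay far below the rest. The log2 fold changes were −0.76 ± 0.07, −1.06 ± 0.07, −0.62 ± 0.07 and −3.28 ± 0.08 in that order (edgeR adjusted p of 5.35e-09 for BPS and smaller for the others). Tef, a sister factor, had 66.2, 62 and 63.8 CPM in female E2 livers, against 146, 138 and 149 CPM in control females, groups that do not overlap (−1.17 ± 0.06). It fell less after BPSIP (−0.32 ± 0.06) and BPS (−0.27 ± 0.06), and 2,4-BPS livers, at 142 ± 7.51 CPM, overlapped controls (adjusted p = 0.865). Hlf fell to 45.2 ± 1.91 CPM after E2 (−0.64 ± 0.07), 53.3 ± 3.13 CPM after BPSIP (−0.40 ± 0.07) and 58 ± 6.55 CPM after BPS (−0.27 ± 0.07), against 70.2 ± 1.87 CPM in control females (SD, n = 3). The call for BPS rests on 1 library, since the edgeR adjusted p is 0.00642 and becomes 0.0917 without female BPS 1. After 2,4-BPS the Hlf difference was −0.07 ± 0.07 and did not pass.

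Among the period genes, which encode the repressors of CLOCK and BMAL1, Per2 went the opposite way to Dbp after each bisphenol. Per2 had 24.4, 24.9 and 26.4 CPM in female 2,4-BPS livers, 29.6, 38.5 and 35.6 in BPSIP livers, 22.6, 21.3 and 22.7 in BPS livers and 6.5, 4.31 and 4.77 in E2 livers, against 17.6, 17.6 and 15.6 CPM in control females. Every bisphenol library lay above every control library, and every E2 library below. The log2 fold changes were 0.58 ± 0.10, 1.03 ± 0.10, 0.40 ± 0.11 and −1.71 ± 0.12, and all passed, although the call for BPS (adjusted p = 0.00633) becomes 0.051 without female control 3. Per1 rose after BPS to 32.6, 35.7 and 36.7 CPM, against 22, 20.5 and 21.3 CPM in control females, with no overlap (0.73 ± 0.08). Its smaller changes after 2,4-BPS (0.22 ± 0.08, adjusted p = 0.0479) and E2 (−0.22 ± 0.08, adjusted p = 0.0465) passed narrowly. Both calls are lost with RLE factors (0.0535 and 0.0517) and without the filter on low counts (0.0696 and 0.0763). The 2,4-BPS call is lost without any 1 of its 6 libraries (0.0604 to 0.163). The E2 call is lost without female control 1 (0.151), 2 (0.0629) or 3 (0.103) and without female E2 2 or 3 (0.119 each). Per1 after BPSIP differed by 0.16 ± 0.08 and did not pass. Per3 had 10.4, 6.56 and 7.06 CPM in female E2 livers and 19.6, 21.1 and 19.6 CPM in BPS livers, against 29.8, 24.7 and 28.2 CPM in control females. Both groups lay below all control libraries, with log2 fold changes of −1.79 ± 0.12 and −0.45 ± 0.11. After 2,4-BPS (0.22 ± 0.11) and BPSIP (−0.14 ± 0.11) Per3 did not pass.

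The nuclear receptor genes both fell after BPSIP, BPS and E2, and the fitted change of Nr1d1 was the larger of the pair each time. Nr1d1 had 37.5, 35.3 and 32.8 CPM in female 2,4-BPS livers, 24.8, 23.1 and 23.9 in BPSIP livers, 38.6, 45.4 and 38.3 in BPS livers and 28.6, 31.2 and 28.8 in E2 livers, against 60.4, 57.5 and 57.8 CPM in control females. No exposed library reached the control libraries, and the lowest were those of BPSIP. Nr1d1 changed by −0.73 ± 0.07, −1.29 ± 0.08, −0.51 ± 0.07 and −0.99 ± 0.07. Nr1d2 had 72.1 ± 6.4 CPM after BPSIP (−0.60 ± 0.07), 89.1 ± 5.64 after BPS (−0.28 ± 0.07) and 56.3 ± 5.4 after E2 (−0.95 ± 0.07), against 109 ± 4.15 CPM in control females. After 2,4-BPS it had 99.6 ± 4.43 CPM and did not pass (−0.12 ± 0.07, adjusted p = 0.232).

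Ciart, a repressor of CLOCK and BMAL1, had the largest fitted change of the 10 genes after E2. It had 13, 14.3 and 13.7 CPM in female 2,4-BPS livers, 7.7, 7.54 and 7.84 in BPSIP livers, 18, 21.7 and 19.9 in BPS livers and 0.731, 0.852 and 1.24 in E2 livers, against 10.9, 11.7 and 10.8 CPM in control females. The E2 libraries held 27 to 46 Ciart counts each, so counting error is larger there than for any other member and group. Ciart fell after E2 (−3.56 ± 0.16) and BPSIP (−0.54 ± 0.12) and rose after BPS (0.85 ± 0.12), each without overlap. After 2,4-BPS it lay above all controls but did not pass (0.30 ± 0.12, adjusted p = 0.0656), while DESeq2 gave an adjusted p of 0.0485. Usp2 encodes a deubiquitinase that acts on clock proteins. It fell to 7.82, 7.47 and 6.71 CPM in female E2 livers, against 31.3, 28.4 and 31.4 CPM in control females (−2.06 ± 0.09). It rose after 2,4-BPS to 39.3, 36.7 and 39.6 CPM (0.35 ± 0.08), and BPSIP livers, at 30.4 ± 1.05 CPM, overlapped the controls. The rise after BPS to 35.8 ± 2.22 CPM (0.24 ± 0.08, adjusted p = 0.0241) is lost without female control 2 (0.140), female BPS 2 (0.142) or female BPS 3 (0.0672).

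In male livers, Nr1d1 was higher than in the libraries labelled male control after every exposure, and nearly all other members were lower or did not pass. After 2,4-BPS 1 gene was higher and 9 lower, against 18.9% and 19.4% of all tested genes. After BPSIP 1 was higher and 6 lower, against 17.4% and 17.4%. After BPS 1 was higher and 8 lower, against 20.6% and 22.7%. After E2 1 was higher and 9 lower, against 17.2% and 16.4%. The median log2 fold changes of the 10 genes were −1.22, −0.35, −0.69 and −1.71 in the same order, beside medians over all genes of −0.01, −0.01, −0.02 and −0.00. The 4 comparisons share the libraries labelled male control.

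Exposed male groups were also set against each other, with the libraries labelled male control outside the contrast. Against the mean of the other 3 exposed male groups, E2 livers had 0 members higher and 9 lower, where 17.3% and 14.2% of all genes were called. 2,4-BPS livers had 0 higher and 7 lower, against 13.5% and 12.3%. BPSIP livers had 9 higher and 0 lower, against 15.9% and 15.4%. BPS livers had 7 higher and 1 lower, against 16.9% and 18.9%. These 4 contrasts are not independent, since each group stands in the mean of the others. For a gene that differs, some groups must come out higher and others lower. Higher or lower here is thus relative to the other exposed males, not to a control. As a further check, each exposed male library was mixed with a control female library at the 41.8% share before the comparison with the libraries labelled male control. Every member that had passed against those libraries passed in the same direction after mixing, several with a smaller change, as given below. The same 3 control female libraries entered all 4 exposed groups, which narrows the spread within a group by construction. Standard errors and calls after mixing, also those gained by it, are therefore not those of independent livers.

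Dbp had 33.7, 35.4 and 32.1 CPM in male 2,4-BPS livers, 98.9, 103 and 96.2 in BPSIP livers, 65.6, 73.2 and 76.1 in BPS livers and 17.6, 16.6 and 15 in E2 livers, against 100.2, 101 and 107 CPM in the libraries labelled male control. BPSIP livers overlapped those libraries, and the other 3 groups lay below them, E2 the lowest. Dbp fell after 2,4-BPS (−1.61 ± 0.06), BPS (−0.54 ± 0.06) and E2 (−2.64 ± 0.07), and BPSIP did not pass (−0.04 ± 0.06, adjusted p = 0.622). Against the mean of the other exposed males, Dbp was −1.91 ± 0.06 in E2 livers, −0.53 ± 0.05 in 2,4-BPS livers, 1.55 ± 0.05 in BPSIP livers and 0.89 ± 0.05 in BPS livers. In the mixed comparison the Dbp changes were −0.68 ± 0.04, −0.28 ± 0.04 and −0.90 ± 0.04 after 2,4-BPS, BPS and E2. Tef had 85.5 ± 3.66 CPM in 2,4-BPS livers, 129 ± 4.78 in BPSIP livers, 102 ± 4.54 in BPS livers and 65.5 ± 3.54 in E2 livers, against 169 ± 3.4 CPM in the libraries labelled male control. The order of the exposed male groups was that of Dbp. In the mixed comparison Tef changed by −0.62 ± 0.03 after 2,4-BPS and −0.77 ± 0.03 after E2, against −0.98 ± 0.05 and −1.35 ± 0.05 without mixing. Tef also fell after BPSIP (−0.38 ± 0.05) and BPS (−0.75 ± 0.05) relative to the libraries labelled male control. Against the other exposed males these last 2 turned round, with Tef at −0.15 ± 0.04 after 2,4-BPS, 0.65 ± 0.04 after BPSIP, 0.16 ± 0.04 after BPS and −0.65 ± 0.04 after E2. Hlf fell to 39.8 ± 4.36 CPM after 2,4-BPS and 44.3 ± 0.899 CPM after E2, against 68.1 ± 3.66 CPM in the libraries labelled male control (−0.77 ± 0.07 and −0.61 ± 0.07, or −0.37 ± 0.04 and −0.30 ± 0.04 after mixing). Its fall after BPSIP was −0.31 ± 0.06, or −0.16 ± 0.04 after mixing. The fall after BPS (−0.21 ± 0.06, or −0.11 ± 0.04 after mixing, adjusted p = 0.00702) is lost without male control 1 (0.0768) or male BPS 2 (0.0949). Hlf, set against the other exposed males, was −0.39 ± 0.06 after 2,4-BPS, 0.21 ± 0.05 after BPSIP, 0.36 ± 0.05 after BPS and −0.18 ± 0.05 after E2, so that BPSIP and BPS turned to higher.

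Nr1d1 had 74.9, 81.6 and 73.6 CPM in male 2,4-BPS livers, 101, 101 and 107 in BPSIP livers, 59.1, 62.3 and 57.6 in BPS livers and 63.4, 64.7 and 65 in E2 livers, against 28.8, 28.9 and 27.7 CPM in the libraries labelled male control. No exposed library overlapped those libraries. The log2 fold changes were 1.43 ± 0.06, 1.86 ± 0.06, 1.05 ± 0.06 and 1.19 ± 0.06. After mixing they were 1.26 ± 0.04, 1.54 ± 0.04, 1.04 ± 0.04 and 1.10 ± 0.04. Among the exposed males alone, Nr1d1 was higher in BPSIP livers (0.64 ± 0.04), lower in BPS livers (−0.44 ± 0.05) and E2 livers (−0.26 ± 0.05), and 2,4-BPS livers did not pass (0.06 ± 0.05). Nr1d2 did not follow Nr1d1 against the libraries labelled male control: it fell after each exposure, with log2 fold changes of −0.81 ± 0.05, −0.42 ± 0.05, −0.63 ± 0.05 and −0.92 ± 0.05. After mixing the values were −0.60 ± 0.03, −0.40 ± 0.03, −0.51 ± 0.03 and −0.65 ± 0.03. Against the other exposed males Nr1d2 was −0.16 ± 0.04 after 2,4-BPS, 0.37 ± 0.04 after BPSIP, 0.09 ± 0.04 after BPS and −0.29 ± 0.04 after E2. There BPSIP turned to higher and BPS did not pass (adjusted p = 0.111).

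Per1, Per3, Ciart and Usp2 had their lowest male means in 2,4-BPS and E2 livers. Per1 had 11.6, 16 and 11.6 CPM in male 2,4-BPS livers and 18.9, 18.7 and 17.9 CPM in E2 livers, against 37.3, 35.5 and 35.5 CPM in the libraries labelled male control (−1.46 ± 0.09 and −0.95 ± 0.09). BPS livers also fell (−0.77 ± 0.09), and BPSIP livers, at 33.4 ± 1.5 CPM, did not pass (−0.11 ± 0.09), but did after mixing (−0.38 ± 0.06). Against the other exposed males Per1 was −0.85 ± 0.08 after 2,4-BPS, 0.95 ± 0.07 after BPSIP, 0.07 ± 0.08 after BPS and −0.17 ± 0.08 after E2, and the values for BPS and E2 did not pass. Per2 had 17.3, 16 and 12.7 CPM in male 2,4-BPS livers, 13.2, 15.2 and 17.3 in BPSIP livers, 24.5, 26.9 and 19.8 in BPS livers and 5.87, 6.49 and 6.87 in E2 livers, against 28.2, 26.5 and 26.3 CPM in the libraries labelled male control. The E2 libraries stood alone at the bottom, while the 2,4-BPS and BPSIP libraries overlapped each other, and the BPS libraries lay nearest to those labelled male control. Per2 fell after 2,4-BPS (−0.81 ± 0.11), BPSIP (−0.82 ± 0.11) and E2 (−2.06 ± 0.12, or −1.30 ± 0.08 after mixing), and BPS did not pass (−0.20 ± 0.11, adjusted p = 0.133), but did after mixing (−0.39 ± 0.08). Per2 was the gene for which BPSIP livers did not stand apart from the other exposed males (0.20 ± 0.09, adjusted p = 0.0876), whereas BPS livers were higher (1.03 ± 0.09), E2 livers were lower (−1.45 ± 0.11) and 2,4-BPS livers did not pass (0.21 ± 0.09). Per3 had 10.5 ± 1.46 CPM in 2,4-BPS livers, 21.9 ± 2.4 in BPSIP livers, 12.8 ± 1.67 in BPS livers and 5.11 ± 0.847 in E2 livers, against 33.7 ± 1.27 CPM in the libraries labelled male control. All 4 groups were lower, with log2 fold changes of −1.68 ± 0.11, −0.61 ± 0.11, −1.42 ± 0.11 and −2.71 ± 0.12. After mixing, the values were −0.92 ± 0.06, −0.48 ± 0.06, −0.84 ± 0.06 and −1.18 ± 0.07. Set against the other exposed males, Per3 was −0.10 ± 0.10 after 2,4-BPS, 1.32 ± 0.09 after BPSIP, 0.25 ± 0.09 after BPS and −1.47 ± 0.11 after E2, so that BPSIP and BPS turned to higher and 2,4-BPS did not pass.

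Ciart had 3.78, 3.73 and 4.51 CPM in male 2,4-BPS livers, 23.3, 20.1 and 25.6 in BPSIP livers, 10.1, 7.11 and 11.1 in BPS livers and 2.85, 3.99 and 4.07 in E2 livers, against 23.6, 21.8 and 22.6 CPM in the libraries labelled male control. BPSIP livers overlapped the libraries labelled male control (0.03 ± 0.12), and the other 3 groups lay below, with E2 and 2,4-BPS livers overlapping each other. Ciart fell after 2,4-BPS (−2.50 ± 0.14), BPS (−1.28 ± 0.13) and E2 (−2.63 ± 0.14, or −1.72 ± 0.09 after mixing), while mixing turned the BPSIP value to −0.36 ± 0.08. Against the other exposed males Ciart was −1.20 ± 0.13 after 2,4-BPS, 2.16 ± 0.10 after BPSIP, 0.41 ± 0.11 after BPS and −1.38 ± 0.13 after E2, so that BPS turned to higher and BPSIP was the highest. Usp2 had 7.96, 11.6 and 13.5 CPM in male 2,4-BPS livers, 37.5, 39.3 and 39.1 in BPSIP livers, 21.2, 24.4 and 22.7 in BPS livers and 9.52, 8.98 and 8.88 in E2 livers, against 59.2, 58.1 and 58.5 CPM in the libraries labelled male control. It fell after all 4 exposures, with log2 fold changes of −2.40 ± 0.10, −0.59 ± 0.09, −1.38 ± 0.10 and −2.67 ± 0.10. After mixing, they were −1.60 ± 0.05, −0.76 ± 0.05, −1.19 ± 0.05 and −1.68 ± 0.06. Usp2, set against the other exposed males, was −0.86 ± 0.09 after 2,4-BPS, 1.56 ± 0.08 after BPSIP, 0.51 ± 0.08 after BPS and −1.21 ± 0.09 after E2, so that BPSIP and BPS turned to higher.

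**Figure D2:**
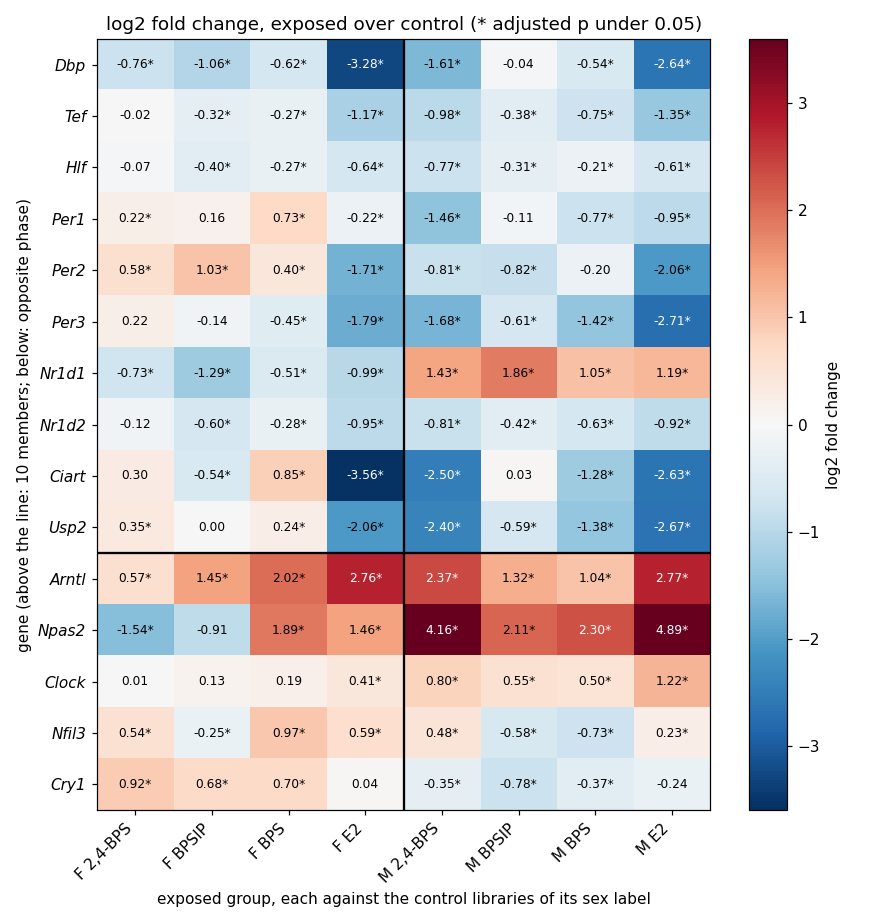
Log2 fold changes of the 10 genes (upper rows) and of 5 genes of the opposite phase (lower rows) in each exposed group over the control libraries of its sex label, with an asterisk where the edgeR adjusted p is under 0.05. The female E2 column is negative in all 10 upper rows, the Nr1d1 row is negative in females and positive against the libraries labelled male control, and the Arntl row is positive throughout.

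A joint test asked whether the 4 exposed groups of a sex differ among themselves, without controls. It called 10 of 10 members in females, where it called 56.4% of all genes, and 10 of 10 in males, where it called 54.7%. The male contrast leaves out the libraries labelled male control, although they stay in the fit that sets the scaling and the spread. Within a sex the bisphenols were also set against BPS at the matched dose and age, which gave 4 pairs, with p-values adjusted over all genes of a fit.

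In females, 2,4-BPS and BPS livers differed in 6 members and BPSIP and BPS livers in 8. Between 2,4-BPS and BPS livers, which differ by the position of a hydroxyl group, 3 members were higher and 3 lower, against 10.2% and 9.23% of all genes. Per3 (0.66 ± 0.11) and Tef (0.25 ± 0.06) were higher, and Ciart (−0.54 ± 0.11) and Per1 (−0.51 ± 0.08) were lower after 2,4-BPS. The calls for Hlf (0.20 ± 0.07, adjusted p = 0.0414) and Nr1d1 (−0.22 ± 0.07, adjusted p = 0.0374) rest on single libraries. Hlf loses its call without female 2,4-BPS 1 (0.134) or 2 (0.140) and without female BPS 1 (0.320, with a log2 difference of 0.11) or 2 (0.0658). Nr1d1 loses it without female 2,4-BPS 2 (0.0745) or 3 (0.183) and without female BPS 2 (0.308, with a log2 difference of −0.13). The other 4 did not pass, with 95% intervals of −0.28 to −0.01 for Dbp, −0.03 to 0.39 for Per2, 0.02 to 0.30 for Nr1d2 and −0.05 to 0.26 for Usp2, not adjusted for the number of genes.

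Between BPSIP and BPS livers of females, which differ by the isopropyl ether, 2 members were higher and 6 lower, against 19.2% and 20.1% of all genes. Per2 was higher (0.63 ± 0.10) and Ciart (−1.38 ± 0.12), Nr1d1 (−0.78 ± 0.08), Per1 (−0.57 ± 0.08), Dbp (−0.44 ± 0.07) and Nr1d2 (−0.32 ± 0.07) were lower after BPSIP. Per3 (0.31 ± 0.11, adjusted p = 0.0221) loses its call without female BPSIP 1 (0.0685), female BPS 1 (0.0725) or female BPS 3 (0.0732). Usp2 (−0.25 ± 0.08, adjusted p = 0.00934) loses it without female BPS 2 (0.0684). Tef (interval −0.16 to 0.07) and Hlf (interval −0.28 to 0.01) did not pass, although Hlf passes without female BPS 1 (0.0145).

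In males the same pairs pointed opposite ways for most members, but in both Nr1d1 was higher and Per2 lower than after BPS. After 2,4-BPS, 1 member was higher and 8 lower than after BPS, against 15.2% and 12.3% of all genes. Nr1d1 was higher (0.38 ± 0.06), and Ciart (−1.21 ± 0.15), Dbp (−1.07 ± 0.06) and Usp2 (−1.02 ± 0.10) were lower by the widest margins. Per2 was also among the lower ones (−0.61 ± 0.11). Per3 did not pass (−0.26 ± 0.12, interval −0.50 to −0.03), but does without male 2,4-BPS 2 (0.0199) or male BPS 1 (0.0373). After BPSIP, 8 members were higher and 1 lower than after BPS, against 18.6% and 16.8% of all genes. Ciart (1.31 ± 0.13), Nr1d1 (0.81 ± 0.06), Per3 (0.80 ± 0.11) and Usp2 (0.79 ± 0.10) led the higher ones. Per2 was the lower one (−0.62 ± 0.11), and Hlf did not pass (interval −0.24 to 0.02).

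Female and male livers of the same exposure were compared to ask whether the genes stand at the same level in both sexes. After 2,4-BPS, females had 9 members at a higher and 1 at a lower level than males, against 23.9% and 23.5% of all genes. Usp2 (1.81 ± 0.10), Ciart (1.77 ± 0.14) and Per3 (1.60 ± 0.12) were higher by the widest margins, and Nr1d1 was lower (−1.12 ± 0.06). After BPSIP, 1 was higher and 7 lower in females, against 26.1% and 25.1%. Per2 was higher (1.18 ± 0.11), and Nr1d1 (−2.10 ± 0.07), Ciart (−1.58 ± 0.13) and Dbp (−0.98 ± 0.06) were lower. The Tef call there (−0.16 ± 0.05, adjusted p = 0.0105) is lost without female BPSIP 1 (0.109) or male BPSIP 3 (0.0993), and Per3 passes without male BPSIP 3 (0.0413). After BPS, 5 were higher and 1 lower in females, against 19.4% and 20.1%, led by Ciart (1.08 ± 0.13) and Per1 (0.71 ± 0.09), with Nr1d1 the lower one (−0.55 ± 0.06). After E2, 1 was higher and 5 lower, against 17.3% and 17.3%. Ciart (−1.95 ± 0.19) and Nr1d1 (−1.12 ± 0.07) were lower, and Per3 was higher (0.65 ± 0.14, or 0.40 without female E2 1). The Usp2 call (−0.32 ± 0.11, adjusted p = 0.0185) is lost without female E2 3 (0.0802) or male E2 1 (0.0559), and Per2 passes without female E2 1 (0.00418). Nr1d1 was thus lower in females than in males within all 4 exposures.

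Between the control livers of females and the libraries labelled male control, 1 member was higher and 7 lower in females, against 14.6% and 15.6% of all genes. Nr1d1 was the higher one (1.04 ± 0.07), and Ciart (−1.03 ± 0.13), Usp2 (−0.95 ± 0.09) and Per1 (−0.76 ± 0.08) were lower. The Per3 call (−0.29 ± 0.11, adjusted p = 0.0384) is lost without female control 2 (0.183) or 3 (0.0594) and without male control 2 (0.0783) or 3 (0.102). Dbp (0.03 ± 0.06) and Hlf (0.04 ± 0.07) did not pass. Since the libraries labelled male control hold female RNA, these values may not be those of male controls.

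**Figure D3:**
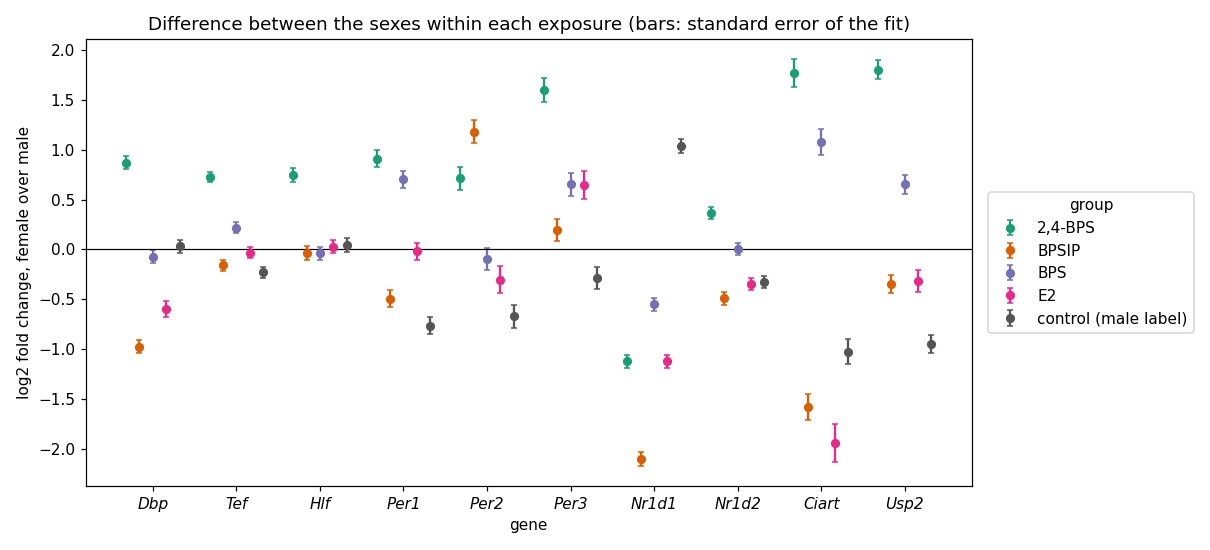
Log2 fold change, female over male, of each of the 10 genes within each exposure and among controls, with bars for the standard error of the fit of 30 libraries. The Nr1d1 points are below 0 in all 4 exposures and above 0 between controls, while 9 of the 10 points for 2,4-BPS are above 0.

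The test of the difference between the sexes in the effect of an exposure uses both control groups. The effect of 2,4-BPS was higher in females than in males for 9 members and lower for 1, against 18% and 16.8% of all genes. For BPSIP the numbers were 3 and 3, against 19% and 17.4%. For BPS they were 7 and 1, against 16% and 14.9%, and for E2 3 and 3, against 8.93% and 7.98%. Nr1d1 was among the lower ones each time. All of these rest on the libraries labelled male control.

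The phase of the clock was read from pairs of genes with different peak hours. The ratio of Dbp to Arntl, which peak at opposite times of day, was highest in both control groups. On the log2 scale it was 3.86 ± 0.11 in female 2,4-BPS livers, 2.68 ± 0.07 in BPSIP livers, 2.55 ± 0.28 in BPS livers and −0.86 ± 0.14 in E2 livers, against 5.19 ± 0.17 in control females (mean ± SD of 3 livers). In males it was 0.96 ± 0.07 after 2,4-BPS, 3.58 ± 0.17 after BPSIP, 3.38 ± 0.42 after BPS and −0.47 ± 0.14 after E2, against 4.96 ± 0.27 in the libraries labelled male control. E2 livers of both sexes were the only ones below 0, that is with more Arntl than Dbp counts, and male 2,4-BPS livers came next. Arntl itself had 19.9, 19.6 and 19.3 CPM in female E2 livers, against 3.19, 2.9 and 2.56 CPM in control females, and 21.9, 24.1 and 22.1 CPM in male E2 livers, against 2.84, 2.96 and 4.28 CPM in the libraries labelled male control. Both groups of E2 livers lay far above the controls (2.76 ± 0.14 and 2.77 ± 0.15).

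Nr1d1 and Per2 peak some hours apart on the same side of the cycle, so that Nr1d1 is already falling while Per2 rises. The log2 ratio of Nr1d1 to Per2 was 0.48 ± 0.15 in female 2,4-BPS livers, −0.52 ± 0.25 in BPSIP livers, 0.87 ± 0.19 in BPS livers and 2.53 ± 0.36 in E2 livers, against 1.79 ± 0.09 in control females. The 3 bisphenol groups lay below the control females and the E2 group above, with no overlap. In males it was 2.33 ± 0.21 after 2,4-BPS, 2.77 ± 0.16 after BPSIP, 1.34 ± 0.17 after BPS and 3.33 ± 0.10 after E2, against 0.08 ± 0.05 in the libraries labelled male control. The exposed males lay above the libraries labelled male control, again with no overlap. By the order of peaks given above, less Nr1d1 and Dbp with more Per2 is the pattern of a later point on the falling side of the cycle. These genes had it in the females of all 3 bisphenols, but the other members were mixed, some with narrow calls as given above. After BPS, Per1 (0.73), Ciart (0.85) and Usp2 (0.24) rose, and Per3 (−0.45), Tef, Hlf and Nr1d2 fell. After 2,4-BPS, Per1 (0.22) and Usp2 (0.35) rose, and Tef, Hlf, Per3, Nr1d2 and Ciart did not pass. After BPSIP, Tef, Hlf, Nr1d2 and Ciart (−0.54) fell, and Per1, Per3 and Usp2 did not pass. More Nr1d1 and Arntl with less Dbp and Per2 is the pattern of an earlier point, before Dbp has risen. Male 2,4-BPS and E2 livers had it relative to the libraries labelled male control. Male BPS livers had it except that Per2 did not pass (−0.20 ± 0.11), and male BPSIP livers except that Dbp did not (−0.04 ± 0.06). Against the other exposed males, Nr1d1 was lower in E2 livers (−0.26 ± 0.05), and neither Nr1d1 (0.06 ± 0.05) nor Per2 (0.21 ± 0.09) passed in 2,4-BPS livers. That contrast cannot show a pattern that exposed groups share, since each stands in the reference of the others. In the mixed comparison, which still uses the libraries labelled male control, Nr1d1 was 1.26 after 2,4-BPS and 1.10 after E2. Dbp was −0.68 and −0.90 there, and Per2 was −0.77 and −1.30. In male BPS livers Nr1d1, Dbp and Per2 were 1.04, −0.28 and −0.39 after mixing, and all passed. In male BPSIP livers Dbp did not pass after mixing (−0.03 ± 0.04). Less of Nr1d1, Dbp and Per2 with more Arntl, as in female E2 livers, falls near the time when Arntl is high. Whether the groups were collected at different hours was not tested. The labels record no hour, and with 1 set of 3 livers per group an hour shared by a group and its exposure cannot be told apart.

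**Figure D4:**
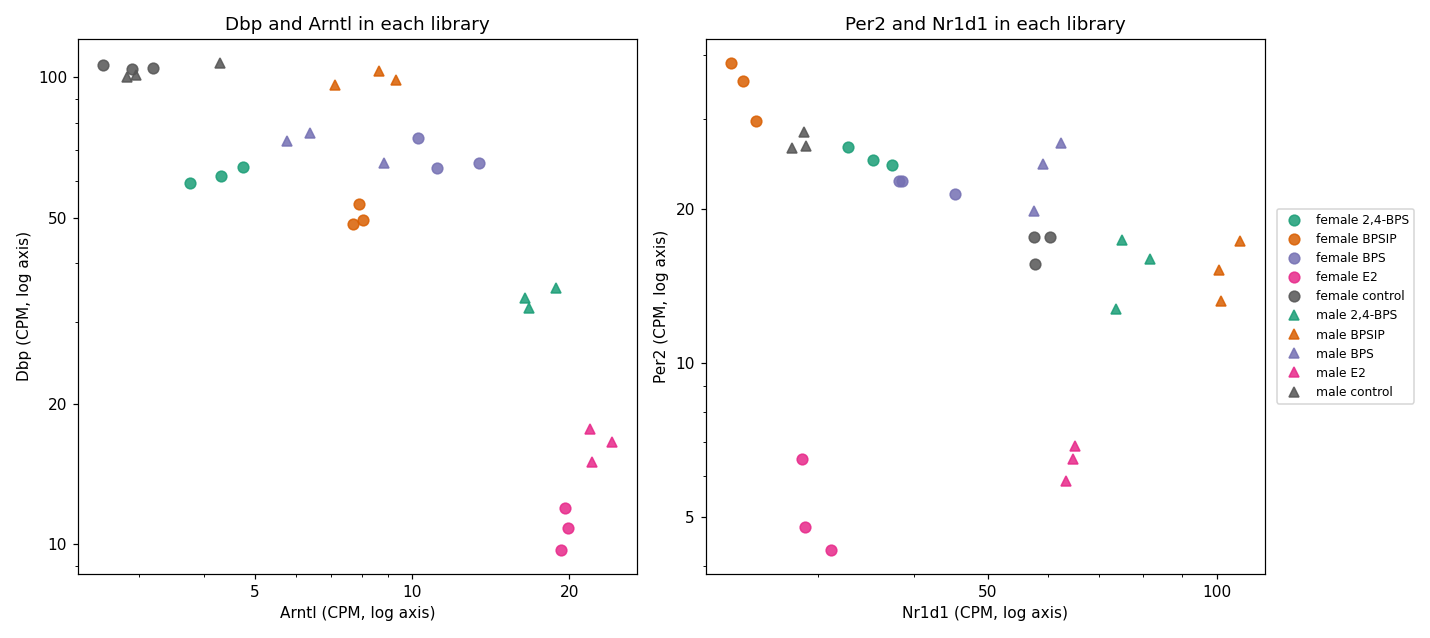
CPM in each of the 30 libraries on log axes, Dbp against Arntl on the left and Per2 against Nr1d1 on the right, with circles for females and triangles for males. E2 livers of both sexes lie together at high Arntl and low Dbp, whereas in the right panel female and male E2 livers share low Per2 but differ in Nr1d1.

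Of 5 genes of the opposite phase, Arntl, Clock, Npas2, Nfil3 and Cry1, females had 3 higher and 1 lower after 2,4-BPS, 2 higher and 1 lower after BPSIP, 4 higher and 0 lower after BPS and 4 higher and 0 lower after E2. In males the counts were 4 higher and 1 lower, 3 higher and 2 lower, 3 higher and 2 lower and 4 higher and 0 lower in the same order, against the libraries labelled male control. Their median log2 fold changes were 0.54, 0.13, 0.97 and 0.59 in females and 0.80, 0.55, 0.50 and 1.22 in males. Of all tested genes, 7.5% to 19.4% were called in a given direction in the female comparisons and 16.4% to 22.7% in the male ones. Arntl rose in all 8 comparisons, least in female 2,4-BPS livers (0.57 ± 0.14) and most in male E2 livers (2.77 ± 0.15) by the fitted values. Clock, its partner, passed after E2 in females (0.41 ± 0.11) and after every exposure in males, by 0.80 ± 0.07, 0.55 ± 0.07, 0.50 ± 0.07 and 1.22 ± 0.07. Npas2, which can stand in for Clock, rose after E2 in females (1.46 ± 0.47). It had 1.49, 1.87 and 1.54 CPM in female E2 livers, against 0.319, 0.346 and 1.1 CPM in control females, groups that do not overlap. These levels are low, and 1 control library lay near the E2 livers. Nfil3, which competes with DBP at D-boxes, rose after 2,4-BPS (0.54 ± 0.10), BPS (0.97 ± 0.09) and E2 (0.59 ± 0.09) in females and fell after BPSIP (−0.25 ± 0.10). Cry1, a late repressor, rose after the 3 bisphenols in females, by 0.92 ± 0.12, 0.68 ± 0.12 and 0.70 ± 0.12. In males Arntl and Clock rose after every exposure, so the lower calls after the bisphenols fell among Npas2, Nfil3 and Cry1. The male medians given above equal the Clock values, so they do not stand for all 5 genes.

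Per unit of length, averaged over the 30 libraries, Dbp was the most abundant of the 10 genes at 25.1 FPKM (counts scaled by gene length and library total, as deposited), followed by Nr1d1 at 18.8, Tef and Nr1d2 at 18.6 each, Hlf at 9.44, Ciart at 4.87, Usp2 at 4.46, Per2 at 3.18, Per3 at 2.90 and Per1 at 2.89. The genes differ in how widely their group means spread in CPM. The highest group mean was 24.5 times the lowest for Ciart, 9.70 times for Dbp, 7.99 times for Usp2, 6.66 times for Per2, 6.60 times for Per3 and 4.30 times for Nr1d1. For Per1, Tef, Nr1d2 and Hlf it was 2.76, 2.64, 2.42 and 1.76 times. Female E2 livers had the lowest mean for Dbp, Tef, Per2, Nr1d2, Ciart and Usp2, male E2 livers for Per3, male 2,4-BPS livers for Per1 and Hlf, and female BPSIP livers for Nr1d1. The libraries labelled male control had the highest mean for Tef, Per1, Per3, Nr1d2 and Usp2, control females for Dbp and Hlf, male BPSIP livers for Nr1d1 and Ciart, and female BPSIP livers for Per2.

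Ordered upward by mean, Dbp was lowest in female E2 livers (10.9 CPM), followed by male E2, male 2,4-BPS, female BPSIP, female 2,4-BPS, female BPS, male BPS and male BPSIP livers, the libraries labelled male control and control females (105 CPM). Of the 9 steps in that order, 4 join neighbours whose libraries overlap, namely those among female 2,4-BPS, female BPS and male BPS livers and those among the last 3 groups. Nr1d1 was lowest in female BPSIP livers (23.9 CPM), followed by the libraries labelled male control, female E2, female 2,4-BPS and female BPS livers, control females, and male BPS, male E2, male 2,4-BPS and male BPSIP livers (103 CPM). Neighbours overlapped only between the libraries labelled male control and female E2 livers and between control females and male BPS livers. Per2 was lowest in female E2 livers (5.19 CPM), followed by male E2, male BPSIP and male 2,4-BPS livers, control females, female BPS, male BPS and female 2,4-BPS livers, the libraries labelled male control and female BPSIP livers (34.6 CPM). Its neighbours were apart at 3 of 9 steps, below male BPSIP livers, above control females and below female BPSIP livers. Ciart spanned 0.941 CPM in female E2 livers to 23.0 CPM in male BPSIP livers, and Usp2 spanned 7.33 CPM in female E2 livers to 58.6 CPM in the libraries labelled male control, both apart at 5 of 9 steps. For Hlf 8 of 9 neighbours overlapped, so that its order is the least resolved.

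Across the 10 group means on the log2 scale, the 36 pairs of members without Nr1d1 had a Pearson r of 0.470 to 0.966, with a median of 0.815. The 9 pairs with Nr1d1 had r of −0.303 to 0.142. Without the libraries labelled male control these ranges were 0.402 to 0.960 and −0.190 to 0.453. The 10 points share libraries and scaling, and these values are a description with no test. Among 9284 genes with a mean of at least 5 CPM, the patterns over the 10 groups most like Dbp were those of Tef (r of 0.93), Wee1 (0.93), Ciart (0.93), Usp2 (0.91), Coq10b (0.90), Prkaa1 (0.90), Azin1 (0.89), Sord (0.88), Nepro (0.88) and Nr1d2 (0.88). Thus 4 of the 10 nearest genes were members and Wee1, a mitotic kinase gene known as a clock output in liver, was in the list of liver outputs. When the libraries labelled male control were left out, a choice made after the data were seen, 9 of the 10 nearest genes were shared. Per3 (0.84), Per2 (0.80), Hlf (0.78) and Per1 (0.63) followed at ranks 18, 28, 32 and 171, and Nr1d1 (0.14) was at rank 2963, or 1522 (r of 0.29) without the libraries labelled male control. The least alike were Xk (−0.94), Lnx2 (−0.93), Cldn1 (−0.92), Hal (−0.92) and Cbs (−0.92), and Arntl (−0.82) was at rank 9253 of 9284. Other genes of the opposite phase with a mean of at least 5 CPM were less far from Dbp. Clock (−0.60), Nfil3 (−0.35) and Cry1 (0.13) were at ranks 8976, 7775 and 3135.

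Other genes of the clock and its outputs were counted by list. Beside them, 7.5% to 19.4% of all tested genes were called in a given direction in females and 16.4% to 22.7% in males. Small counts in a list are near those shares. Of 7 other clock components (Cry2, Rora, Bhlhe40, Bhlhe41, Csnk1d, Csnk1e and Cipc), females had 1 higher and 1 lower after 2,4-BPS, 0 higher and 3 lower after BPSIP, 1 higher and 1 lower after BPS and 0 higher and 4 lower after E2. In males the counts were 0 higher and 4 lower, 1 higher and 3 lower, 0 higher and 4 lower and 0 higher and 2 lower, in the same order. Of 8 liver outputs of D-boxes and E-boxes (Por, Alas1, Nr1i3, Wee1, Nampt, Gys2, Cyp2a5 and Insig2), E2 livers had 2 higher and 6 lower in females and 1 higher and 7 lower in males. The counts after 2,4-BPS were 4 higher and 1 lower in females and 1 higher and 7 lower in males, after BPSIP 2 higher and 5 lower and 3 higher and 3 lower, and after BPS 4 higher and 2 lower and 2 higher and 6 lower.

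Some of these genes also respond to glucocorticoids, temperature and food, whose marker genes were measured in the same libraries. Glucocorticoid-induced genes (Fkbp5, Tsc22d3, Sgk1, Zbtb16, Tat and Mt2), 6 in number, passed in females as 3 higher and 1 lower after 2,4-BPS, 1 higher and 5 lower after BPSIP, 4 higher and 1 lower after BPS and 3 higher and 2 lower after E2. Their sum was 1436 to 1509.7 CPM in female BPSIP livers and 2578 to 2756 CPM in female BPS livers, against 2025 to 2078 CPM in control females. It was 2265 to 2455 CPM in female 2,4-BPS livers and 2186 to 2293 CPM in female E2 livers. In males the counts were 0 higher and 5 lower, 2 higher and 4 lower, 1 higher and 4 lower and 1 higher and 4 lower, in the same order. Temperature-responsive genes (Cirbp, Rbm3, Hspa1b, Hsph1, Hspa8 and Hsp90aa1), also 6, passed in females as 3 higher and 0 lower, 5 higher and 0 lower, 5 higher and 1 lower and 3 higher and 0 lower, and in males as 6 higher and 0 lower, 6 higher and 0 lower, 6 higher and 0 lower and 5 higher and 0 lower. Their sum was highest in male 2,4-BPS livers, 2725 to 2869.7 CPM against 1216 to 1231 CPM in the libraries labelled male control. Genes of fasting and feeding (Igfbp1, G6pc, Pck1, Srebf1, Pdk4, Irs2 and Ppargc1a), 7 in number, passed in females as 1 higher and 3 lower, 1 higher and 6 lower, 4 higher and 1 lower and 4 higher and 1 lower, and in males as 1 higher and 5 lower, 1 higher and 5 lower, 1 higher and 6 lower and 1 higher and 1 lower. Shares of all tested genes called in a given direction were 7.5% to 19.4% in females and 16.4% to 22.7% in males, and small counts in a list are near them. No direction of response is assigned to the single genes of these lists. Their counts and sums therefore give no direction of a response to temperature or food. The part of these lists in the changes of the 10 genes was not tested.

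Markers of other cells also moved with some groups, where 7.5% to 19.4% of all tested genes were called in a given direction in females and 16.4% to 22.7% in males. All 5 macrophage markers were higher in female 2,4-BPS and BPSIP livers, with sums of 1158 to 1208 and 1247 to 1377 CPM, against 779 to 813 CPM in control females. In females after BPS and E2 the sums were 769 to 832 and 738 to 745 CPM, with 1 marker higher and 2 lower after BPS and 1 higher and 3 lower after E2. In exposed males the sums ran from 375 to 542 CPM, against 740.4 to 788 CPM in the libraries labelled male control. All 4 skeletal muscle markers were higher in male 2,4-BPS livers, with a sum of 10.8 to 23.2 CPM, against 2.14 to 3.32 CPM in the libraries labelled male control, and 2 of 4 were higher in female 2,4-BPS livers, with a sum of 5.74 to 32.1 CPM, against 2.13 to 5.12 CPM in control females. Endothelial markers summed to 180.2 to 298 CPM over the 30 libraries, bile duct markers to 19.6 to 42.4, stellate cell markers to 264 to 370.4 and red cell markers to 312 to 607 CPM. In female E2 livers 1 of 4 endothelial markers was higher and 1 lower, 1 of 4 red cell markers was lower, and no bile duct or stellate cell marker passed. No marker of these cells, macrophages or muscle was at 0 in any library. The sum of the 5 hepatocyte markers was 57066 to 78730 CPM in exposed males, against 104298 to 108215 CPM in the libraries labelled male control, and 96217 to 127820 CPM in exposed females, against 101191 to 104596 CPM in control females. In males the single hepatocyte markers went both ways, so the sum does not stand for all of them. After 2,4-BPS and after BPS 1 was higher and 2 lower, with median log2 fold changes of 0.05 and −0.07. After BPSIP and after E2 1 was higher and 3 lower, with medians of −0.29 and −0.27. The part of these cells in the changes was not tested, and in whole liver fewer cells of a type and less RNA per cell cannot be told apart.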

How the data were processed

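RNA-seq libraries of 30 mouse livers were read from a table of raw counts per gene symbol that the authors deposited, with HISAT2 and HTSeq named in the submitters' processing notes. The sources used here name no build, annotation or strand setting, so reads of a gene and its antisense partner cannot be told apart. The authors also deposited FPKM values, which equal the counts over the library sum and 1 length per gene, and these served to compare levels between genes. The tests on counts used R 4.3.3 with edgeR 4.0.16 (filterByExpr, TMM, robust quasi-likelihood fit, adjusted p under 0.05 by Benjamini and Hochberg over all genes of a fit). Fits used the 15 libraries of a sex (13874 genes in females, 13474 in males) or all 30 (14131 genes), with biological coefficients of variation of 0.0915, 0.0873 and 0.0899, and were tested on simulated data. Libraries of a group differed beyond sampling noise (chi-square per degree of freedom of 5.36 to 21.5 over 30 pairs), and totals of 29711711 to 37719069 counts gave 27 to 5800 counts per member and library. Same-numbered libraries did not deviate together (r of −0.129 to 0.113 over 60 pairs, 1 over 0.1), so no block was used. The 10 members and all lists were chosen with earlier results of these data known. Named genes are the members, the listed genes (a few listed genes are not reported here) and the 5 highest and 5 lowest others by likeness to Dbp. Alternatives were DESeq2 1.42.0, RLE factors, no filter, other sets of libraries, a replicate block, each library left out, and for males the other exposed groups and the mixed comparison. Sequences come from RefSeq promoter windows.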

Additional observations from a re-analysis of the deposited data

Results flagged for a closer look

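For 30 pairings of a member and an exposure, the log2 effect of the exposure against control differed between females and males by an interaction test in edgeR. Each value is the effect in females minus the effect in males, and each rests on the libraries labelled male control, which hold female RNA. For 2,4-BPS the differences were 0.84 for Dbp, 0.96 for Tef, 0.70 for Hlf, 1.68 for Per1, 1.39 for Per2, 1.89 for Per3, −2.16 for Nr1d1, 0.69 for Nr1d2, 2.80 for Ciart and 2.75 for Usp2. For BPSIP they were −1.01 for Dbp, 1.86 for Per2, 0.48 for Per3, −3.14 for Nr1d1, −0.55 for Ciart and 0.60 for Usp2. The Ciart value for BPSIP (adjusted p = 0.0111) did not pass without male BPSIP 3 (adjusted p = 0.0601). For BPS they were 0.45 for Tef, 1.47 for Per1, 0.58 for Per2, 0.94 for Per3, −1.59 for Nr1d1, 0.33 for Nr1d2, 2.10 for Ciart and 1.60 for Usp2. For E2 they were −0.63 for Dbp, 0.75 for Per1, 0.94 for Per3, −2.16 for Nr1d1, −0.92 for Ciart and 0.63 for Usp2. Nr1d1 had the most negative difference under each exposure. The direct comparison of exposed females with exposed males, which needs no control, also gave lower Nr1d1 in females under all 4 exposures.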

How the results depend on the processing

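Counts of members called in either direction stayed within 1.5 times of the reported counts under every alternative run, but counts by direction did not. Against the mean of the other 3 exposed male groups, 9 members were higher and 0 lower after BPSIP (reported: 1 and 6), 7 and 1 after BPS (1 and 8), 0 and 7 after 2,4-BPS (1 and 9) and 0 and 9 after E2 (1 and 9). With only 6 libraries, 5 rather than 3 were higher in female 2,4-BPS livers. Between female BPSIP and BPS livers, 1 rather than 2 was higher without female BPSIP 1, BPS 1 or BPS 3, and between female and male BPSIP livers 2 rather than 1 without male BPSIP 3. When 1 library was left out, 1674 single values kept their direction and call, whatever their size. Of the rest, 38 lost their call, 8 gained one, 20 that had not passed changed sign, and 0 that had passed changed direction. DESeq2 ended no call, and RLE factors, no filter and the replicate block ended only the female Per1 calls after 2,4-BPS and E2. Replicate numbers do not pair the libraries; with the replicate block 4 members (2 higher, 2 lower) were called in female 2,4-BPS livers and 9 in female E2 livers, with Per1 at 0.22 and −0.22. Fitting all 30 libraries ended the female calls of Per1 after 2,4-BPS (adjusted p = 0.0709) and E2 (0.0666) and of Usp2 after BPS (0.0593). Fitting only 6 libraries ended Per1 after E2 (0.0956), and made Ciart (0.0314) and Per3 (0.0392) after 2,4-BPS and Nr1d2 between female 2,4-BPS and BPS livers (0.0458) pass. The BPSIP interaction of Per1 passed with DESeq2 (0.0491), without female BPSIP 2 (0.0431) and without male BPSIP 3 (0.0388), and that of Nr1d2 without female BPSIP 2 (0.044).

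Results that changed direction were all in males, 20 of them when the libraries labelled male control were replaced as the comparison group and 1 in the mixed comparison. Against the mean of the other 3 exposed male groups, Per2 was 0.21 after 2,4-BPS. After BPSIP, Dbp was 1.55, Tef 0.65, Hlf 0.21, Per1 0.95, Per2 0.20, Per3 1.32, Nr1d2 0.37 and Usp2 1.56. After BPS, Dbp was 0.89, Tef 0.16, Hlf 0.36, Per1 0.073, Per2 1.03, Per3 0.25, Nr1d1 −0.44, Nr1d2 0.086, Ciart 0.41 and Usp2 0.51. After E2, Nr1d1 was −0.26. In this alternative the reference differs by construction, so the values answer another question. In the mixed comparison Ciart after BPSIP was −0.36. Among the members, Ciart in female E2 livers, at 27 to 46 counts a library, is the value that depth limits most.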
